A study of Mus musculus with 6 samples.

Results

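Glycolysis turns glucose into pyruvate in the cytosol, lactate dehydrogenase exchanges pyruvate with lactate, monocarboxylate transporters carry lactate across the cell membrane, and the pyruvate dehydrogenase complex commits pyruvate to the mitochondrial tricarboxylic acid cycle. Most steps can be run by several isoenzymes, which are separate genes with different tissue ranges and regulation. Many tumours run this route at a high rate even in oxygen, and several of its genes are known targets of the hypoxia-inducible factors and of MYC. The genes followed here were 36 mouse genes chosen by symbol, from the glucose transporters to the pyruvate dehydrogenase subunits, out of 39179 gene identifiers in the count tables. All 36 symbols were found, each at 1 identifier.

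They were read in RNA-seq of MMTV-Neu tumour grafts, strain FVB, with 3 libraries of genotype AXL KO and 3 of genotype WT. MMTV-Neu is a breast tumour model whose viral promoter, active in mammary epithelium, drives the Neu (ErbB2) oncogene, and it is shared by all 6 libraries. AXL is a TAM receptor tyrosine kinase, and the labels do not describe the allele or say whether a genotype stands for 1 tumour line or several. The labels give no age or time point, and do not say if grafts of 1 genotype were grown in separate animals. The p-values therefore measure only the spread between these libraries, and an effect of AXL cannot be told apart from other differences between the grafted cells.

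Library totals lay between 26541009 and 32491807 counts in genes. Axl itself was counted at 60.1 ± 13.1 CPM in the AXL KO libraries and 60.4 ± 8.95 CPM in the WT libraries (CPM, library-scaled counts with TMM factors, SD, n = 3 each; edgeR adjusted p = 0.978), and since the deleted part of the gene is not given, it does not check the labels. Directions are therefore those between libraries as labelled. A graft holds tumour, host stroma, vessels and blood together, and in such bulk RNA fewer cells of a type and less RNA per cell cannot be told apart. Erbb2, the mammary oncogene of the model, was the most abundant epithelial marker at 9210 CPM in the AXL KO libraries and 7190 CPM in the WT libraries, and the 10 epithelial markers summed to 11900 to 14100 CPM in the AXL KO libraries and 11900 to 13200 CPM in the WT libraries. Erbb2 made up most of that sum and was called higher, with Esrp1, while 6 of the 9 tested epithelial markers were called lower. The median log2 fold change of the 9 was -0.44. Among all tested genes 18.3% were called lower and 19.1% higher (edgeR adjusted p under 0.05). Among the lower ones Krt18 stood at 769 CPM in the AXL KO libraries and 1170 CPM in the WT libraries, and Epcam at 1390 CPM in the AXL KO libraries and 2000 CPM in the WT libraries. The part of these epithelial differences in the results was not tested. Alignments that were not unique, which are missing from the gene counts, made up 25.7% to 26.9% of all counted lines in the AXL KO libraries and 27.3% to 29.0% in the WT libraries. Ambiguous alignments made up 0.717% to 0.896% in the AXL KO libraries and 0.993% to 1.088% in the WT libraries. Those in no annotated gene made up 5.55% to 6.88% in the AXL KO libraries and 4.41% to 5.37% in the WT libraries. The part of these gaps in the results was not tested.

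Most genes of the route from glucose to lactate were lower in the AXL KO libraries, while the genes that govern pyruvate entry into mitochondria were mostly not. Of 35 members that passed the filter on low counts, 21 fell and 2 rose at a Benjamini-Hochberg adjusted p under 0.05 (edgeR quasi-likelihood test, adjusted over all 14850 genes tested), and 12 were not called, where 37.4% of all tested genes were called in either direction. That is 60.0% lower and 5.71% higher, where 18.3% of all tested genes were lower and 19.1% higher. The median log2 fold change was -0.41 over the 35 tested members and 0.00032 over all tested genes. A fall of at least 2-fold was called in 6 members, against 4.82% of all tested genes. The AXL KO libraries lay wholly below the WT libraries in 20 of the 35 members, where 25.2% of all tested genes did so. In the authors' deposited table, 22 members had an adjusted p under 0.05 and were lower in AXL KO and 2 were higher, where 16.7% of the genes with a deposited adjusted p were lower and 16.7% higher. Pgam2, the muscle phosphoglycerate mutase, had 0 counts in all 6 libraries, which allows at most 0.0927 to 0.11 CPM per library (3 counts, counting error only).

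**Figure D1:**
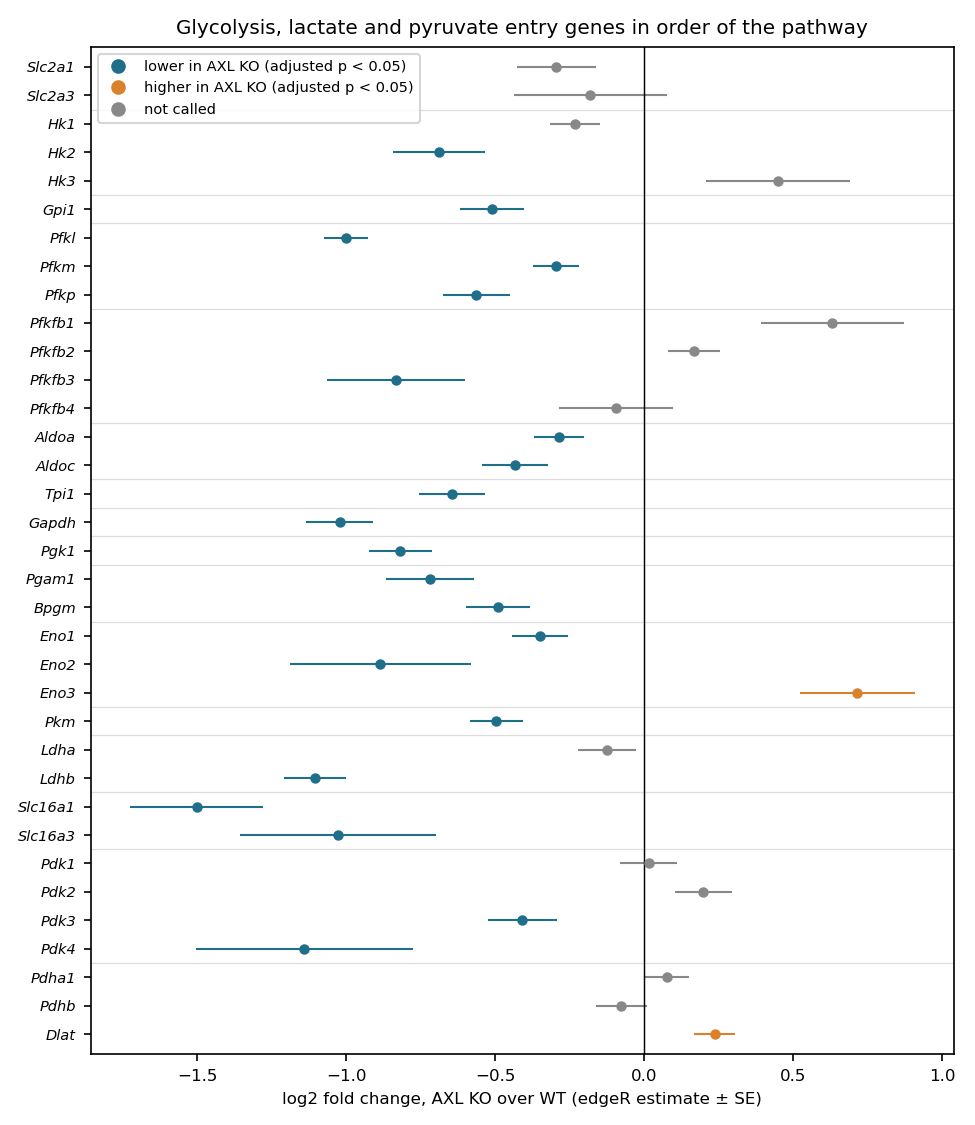
Log2 fold change of AXL KO over WT for the 35 tested genes, in pathway order from glucose uptake (top) to the pyruvate dehydrogenase complex (bottom); points are edgeR estimates, bars are ± 1 SE and colours give the call. Slc16a1 lies farthest to the left at -1.50, while Ldha, Pdk1, Pdha1 and Pdhb lie near 0.

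The calls were not all equally firm. Of the 21 lower members 12 were called under each of 14 other settings of the fit, including each library left out in turn. These were Hk2, Gpi1, Pfkl, Pfkp, Tpi1, Gapdh, Pgk1, Pgam1, Bpgm, Pkm, Ldhb and Slc16a1. Without WT replicate 3 the count of lower members was 12, and neither rising member was called without AXL KO replicate 1 or without AXL KO replicate 3. The libraries also differed within a group. Over the tested members, the median log2 deviation from each gene's mean was -0.12, -0.06 and -0.33 in AXL KO replicates 1, 2 and 3, against 0.07, 0.26 and 0.28 in WT replicates 1, 2 and 3. AXL KO replicate 3 was the lowest AXL KO library for 17 of the 21 lower members, and WT replicate 1 was the lowest WT library for 15 of them.

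The promoters of the members were compared in their letters, since the genes moved together in large part. RefSeq windows of 300 bases (GRCm38.p6, 250 bases before to 50 after the start) were at hand for 35 of the 36 genes. The core ACGTG, on either strand, is shared by hypoxia response elements and by the E-box CACGTG that MYC and its relatives can bind, so every CACGTG also counts as ACGTG. It was present in at least 1 window of 19 of the 35 genes (54.3%), and in 21.8% of all genes with a window. The members had 54 windows for 35 genes, and all genes had 32851 windows for 27025 genes, so members had more windows each. Counted by window, 42.6% of the member windows and 19.6% of all windows held it. Among the lower members 12 of 21 held it (57.1%), and among the other members 7 of 14 (50%). CACGTG was present in 6 of the 35 genes (17.1%) and in 8.09% of all genes, or in 11.1% of the member windows and 7.15% of all windows. The median GC content was 59.7% in the members' windows and 52.7% in all windows, and the core contains a CpG. Windows of 4 genes are printed because they carry the contrasts described next: the lactate dehydrogenase pair, of which Ldhb fell and Ldha did not pass the test, Pgk1 as a lower enzyme of the pathway, and Slc16a1 as the member with the largest fall. Where a gene had more than 1 window, the one with the most marked stretches was printed. Pgk1 does not stand for all lower enzymes: Pfkl, Pfkp, Gpi1 and Tpi1 had 0 marked stretches, Gapdh 1 and Hk2 2. Capitals mark ACGTG on either strand.
Ldha, chr7:46845554-46845853, plus strand, 3 marked stretches of which 2 are CACGTG: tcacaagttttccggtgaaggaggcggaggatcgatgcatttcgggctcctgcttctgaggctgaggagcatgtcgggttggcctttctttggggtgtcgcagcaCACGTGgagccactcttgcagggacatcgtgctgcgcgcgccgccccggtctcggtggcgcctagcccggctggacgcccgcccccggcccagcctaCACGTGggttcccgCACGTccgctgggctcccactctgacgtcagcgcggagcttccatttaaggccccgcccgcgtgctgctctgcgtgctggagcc
Ldhb, chr6:142507908-142508207, minus strand, with 0 marked: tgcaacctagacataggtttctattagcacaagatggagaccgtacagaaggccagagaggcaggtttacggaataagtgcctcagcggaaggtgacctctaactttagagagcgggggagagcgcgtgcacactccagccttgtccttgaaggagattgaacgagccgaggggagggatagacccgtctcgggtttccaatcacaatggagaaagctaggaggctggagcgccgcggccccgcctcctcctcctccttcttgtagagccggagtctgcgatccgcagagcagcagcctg
Pgk1, chrX:106186850-106187149, plus strand, 2 marked: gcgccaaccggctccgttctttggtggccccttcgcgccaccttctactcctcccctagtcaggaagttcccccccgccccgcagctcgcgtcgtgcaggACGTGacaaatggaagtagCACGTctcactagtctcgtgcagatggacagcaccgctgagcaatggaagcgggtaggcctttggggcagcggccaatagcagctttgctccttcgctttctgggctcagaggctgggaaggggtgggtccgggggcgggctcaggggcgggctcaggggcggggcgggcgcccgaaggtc
Slc16a1, chr3:104638414-104638713, plus strand, 2 marked of which 1 is CACGTG: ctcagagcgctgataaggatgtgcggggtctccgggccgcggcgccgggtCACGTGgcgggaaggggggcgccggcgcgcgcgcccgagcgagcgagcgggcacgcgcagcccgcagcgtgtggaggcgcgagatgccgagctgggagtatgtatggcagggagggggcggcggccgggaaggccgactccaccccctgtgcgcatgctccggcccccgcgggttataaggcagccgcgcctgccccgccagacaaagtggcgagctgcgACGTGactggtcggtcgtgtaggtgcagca
Among the printed windows that of Ldha, which was not called, had the most marked stretches, and that of Ldhb, which fell, had none. Ldha has another window, chr7:46846832-46847131, with 0 marked, so this contrast depends on the window chosen. A match is only a description of letters.

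Of the 2 glucose transporter genes among the members, Slc2a1 (GLUT1), the basal transporter of most cells, was by far the more abundant and was not called. Uptake itself was not measured. Outside the members Slc2a6, Slc2a9 and Slc2a12 were called higher, Slc2a10 was called lower, and Slc2a4 and Slc2a8 were not called. The most abundant of these, Slc2a8, stood at 18.7 CPM in the AXL KO libraries and 16.9 CPM in the WT libraries. Slc2a1 had 104, 105 and 87.1 CPM in AXL KO replicates 1, 2 and 3, against 97.1, 136 and 130 CPM in WT replicates 1, 2 and 3. The groups overlapped through WT replicate 1, and the log2 fold change was -0.29 ± 0.13 (SE, edgeR adjusted p = 0.111). Without WT replicate 1 it was -0.43 with an edgeR adjusted p of 0.00912, and with the median of its chromosome removed it was -0.57 with an adjusted p of 0.0121. Slc2a3 (GLUT3), the high-affinity transporter of neurons and leukocytes, stood at 1.14 ± 0.333 CPM in the AXL KO libraries and 1.29 ± 0.0389 CPM in the WT libraries (SD, n = 3 each; edgeR adjusted p = 0.613). Slc2a1 made up 99.5% of the summed level per kilobase of exon of both genes in each group.

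At the hexokinase step, which traps glucose as glucose 6-phosphate, the inducible isoenzyme fell and the main one was near the threshold. Hk2, the hexokinase typical of insulin-sensitive tissue and of many tumours, had 35.9, 45.3 and 33.7 CPM in the AXL KO libraries, against 50.7, 74.5 and 60.0 CPM in the WT libraries. The groups did not overlap, and Hk2 was 1.61-fold lower (log2 fold change -0.69 ± 0.16, SE, edgeR adjusted p = 0.0086). Hk1, the broadly expressed hexokinase, made up 90.4% ± 1.83 of the hexokinase level per kilobase in the AXL KO libraries and 88.8% ± 1.46 in the WT libraries (SD, n = 3 each). It stood at 679 ± 6.18 CPM in the AXL KO libraries and 797 ± 75.9 CPM in the WT libraries, a log2 fold change of -0.23 ± 0.08 (SE, edgeR adjusted p = 0.0561). When WT replicate 1 was left out its adjusted p was 0.0113, at a log2 fold change of -0.31. With the chromosome median removed its log2 fold change was -0.03, since the median of chromosome 10 was -0.20. Hk3, mainly a hexokinase of myeloid cells, stood at 7.49 ± 2.69 CPM in the AXL KO libraries and 5.50 ± 0.709 CPM in the WT libraries (edgeR adjusted p = 0.174), with 10.5 CPM in AXL KO replicate 2. The 11 myeloid markers found summed to 430 to 983 CPM in the AXL KO libraries and 594 to 895 CPM in the WT libraries. Lyz2 was the most abundant, at 213 to 665 CPM in the AXL KO libraries and 377 to 652 CPM in the WT libraries. Ptprc (1.86-fold, edgeR adjusted p = 0.000418) and Fcgr1 (2.16-fold, 0.000656) were called higher and Cd14 lower (1.49-fold, 0.0266). Among all tested genes 18.3% were lower and 19.1% higher. The part of the myeloid markers in the Hk3 values was not tested. The log2 ratio of Hk2 to Hk1 was 0.45 lower in AXL KO, with groups apart (exact permutation p = 0.1, the smallest possible).

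Gpi1, the isomerase that makes fructose 6-phosphate, was lower in every AXL KO library. Its levels were 590, 686 and 534 CPM in the AXL KO libraries, against 780, 928 and 873 CPM in the WT libraries, 1.43-fold lower (edgeR adjusted p = 0.00617). Exons of a gene on the opposite strand cover 11.5% of its exon bases, and the use of strand in counting is not given in the sources used here.

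Phosphofructokinase, which commits sugar to glycolysis, fell in all 3 of its isoenzymes, by different amounts. Pfkl, the liver type (ENSMUSG00000020277, GRCm38 chr10:77986947-78010083, minus strand), had 485, 524 and 474 CPM in the AXL KO libraries, against 947, 1024 and 998 CPM in the WT libraries. The spread within each group was small beside the gap, and Pfkl was 2.0-fold lower (log2 fold change -1.0 ± 0.07, SE, edgeR adjusted p = 3.45e-05). With the median of chromosome 10 (-0.20) removed, the log2 fold change of Pfkl was -0.80 (edgeR adjusted p = 0.000112). Pfkp, the platelet type, fell 1.48-fold to 215 ± 28.7 CPM in the AXL KO libraries, against 318 ± 31.9 CPM in the WT libraries (SD, n = 3 each; edgeR adjusted p = 0.00493). Pfkm, the muscle type, fell 1.23-fold to 80.5 ± 1.44 CPM in the AXL KO libraries, against 98.7 ± 6.75 CPM in the WT libraries (edgeR adjusted p = 0.0158). Other genes share 10.7% of the exon bases of Pfkm. It lies on chromosome 15, where the median log2 fold change of all tested genes was -0.29, and with that removed its own was -0.01 (adjusted p = 0.953). Its adjusted p was 0.0508 without AXL KO replicate 1, 0.0602 without AXL KO replicate 3 and 0.0689 without WT replicate 3. The share of Pfkl in the phosphofructokinase level per kilobase was 64.2%, 65.1% and 65.2% in the AXL KO libraries and 74.6%, 73.3% and 72.8% in the WT libraries. The log2 ratio of Pfkl to Pfkm was 0.71 lower in AXL KO and that of Pfkl to Pfkp 0.44 lower, with groups that did not overlap in either case. For each, the exact two-sided permutation p was 0.1, the smallest that 3 libraries against 3 can give, and 0.175 adjusted over the 14 isoenzyme pairs compared.

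The PFKFB enzymes make and break fructose 2,6-bisphosphate, the main activator of phosphofructokinase, and of the 4 genes Pfkfb3 alone was called. Pfkfb3, the isoenzyme with the strongest kinase side, had 40.2, 58.1 and 32.5 CPM in the AXL KO libraries, against 58.5, 98.6 and 76.1 CPM in the WT libraries. The highest AXL KO library lay just under the lowest WT library, and Pfkfb3 was 1.78-fold lower (edgeR adjusted p = 0.0206). Its adjusted p was 0.0569 to 0.0695 without AXL KO replicate 1, AXL KO replicate 3, WT replicate 2 or WT replicate 3. Pfkfb2, the heart type, stood at 72.9 ± 3.29 CPM in the AXL KO libraries and 64.9 ± 6.05 CPM in the WT libraries (edgeR adjusted p = 0.163, and 0.0396 without WT replicate 2, at a log2 fold change of 0.25), and 19.5% of its exon bases are shared with other genes. Pfkfb1, the liver type, stood at 1.94 ± 0.425 CPM in the AXL KO libraries and 1.25 ± 0.203 CPM in the WT libraries. Its groups did not overlap, and its edgeR adjusted p was 0.0657, or 0.0409 without AXL KO replicate 2. Pfkfb4, which was first described in testis, stood at 2.66 ± 0.454 CPM and 2.84 ± 0.272 CPM in the AXL KO and WT libraries (edgeR adjusted p = 0.727). Pfkfb3 held 33.8% ± 5.66 of the PFKFB level per kilobase in the AXL KO libraries and 50.6% ± 4.62 in the WT libraries, while Pfkfb2 held 60.1% ± 5.11 in the AXL KO libraries and 44.9% ± 3.92 in the WT libraries (SD, n = 3 each). The shares of Pfkfb3 and Pfkfb2 did not overlap between the groups and were not tested against each other, and the summed PFKFB level overlapped (exact permutation p = 0.2).

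**Figure D2:**
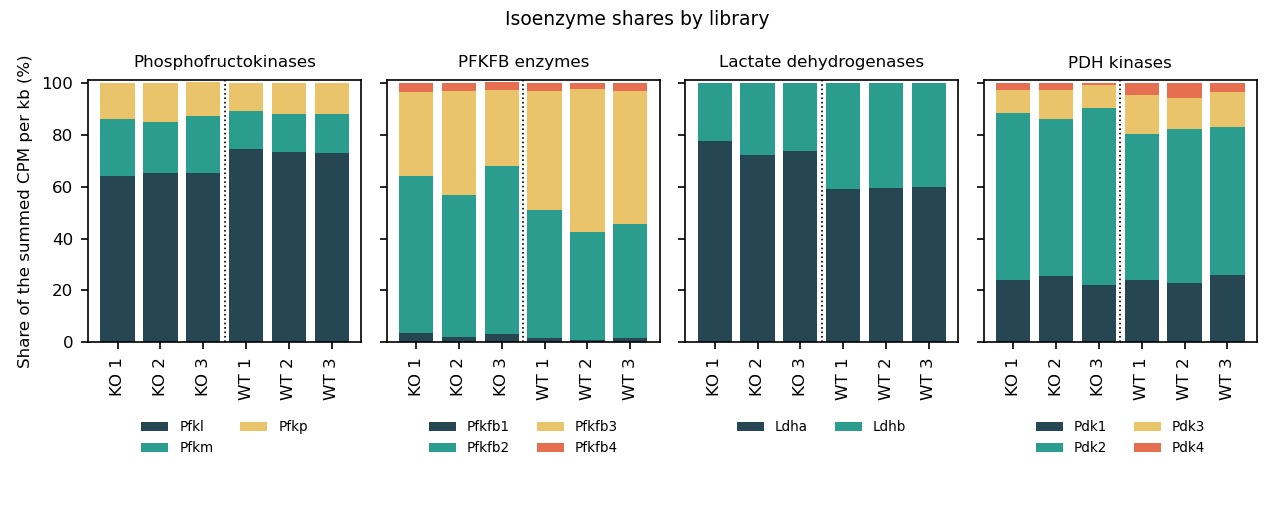
Share of each isoenzyme in the summed CPM per kilobase of exon of its step (y axis, percent), 1 bar per library, with the 3 AXL KO libraries left of the 3 WT libraries. The Ldha share is 72.0% to 77.4% in the AXL KO bars and 59.2% to 59.9% in the WT bars.

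The aldolases, which split the 6-carbon sugar, fell by less than most other steps. Aldoa, the main aldolase, had 1719, 1583 and 1597 CPM in the AXL KO libraries, against 1874, 2173 and 1925 CPM in the WT libraries, 1.22-fold lower (edgeR adjusted p = 0.0247). Aldoc, the brain type, had 411, 408 and 533 CPM in the AXL KO libraries, against 574, 625 and 627 CPM in the WT libraries, 1.35-fold lower (edgeR adjusted p = 0.0148). In this gene AXL KO replicate 3 was the highest of its group, unlike in most other members. The Aldoa call was lost without AXL KO replicate 2 or 3 or WT replicate 2 or 3 (adjusted p = 0.0579 to 0.0886), and the Aldoc call without AXL KO replicate 1 or WT replicate 3 (adjusted p = 0.0621 and 0.0573). With a replicate block the adjusted p of Aldoa was 0.0666.

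The 3-carbon steps from triose phosphate to 3-phosphoglycerate fell by 1.56- to 2.03-fold in the AXL KO libraries. Gapdh, the dehydrogenase that makes NADH and a common reference gene (ENSMUSG00000057666, GRCm38 chr6:125161715-125166467, minus strand), had 990, 1070 and 810 CPM in the AXL KO libraries, against 1785, 2086 and 1956 CPM in the WT libraries. It was 2.03-fold lower (log2 fold change -1.02 ± 0.11, SE, edgeR adjusted p = 0.000267). Tpi1, triose-phosphate isomerase, had 662, 755 and 548 CPM in the AXL KO libraries, against 1016, 1042 and 1013 CPM in the WT libraries, 1.56-fold lower (edgeR adjusted p = 0.0024). Pgk1, which makes ATP (ENSMUSG00000062070, GRCm38 chrX:106187100-106203699, plus strand), had 284, 325 and 243 CPM in the AXL KO libraries, against 473, 508 and 520 CPM in the WT libraries, 1.76-fold lower (edgeR adjusted p = 0.00064). In all 3 genes AXL KO replicate 2 was the highest and replicate 3 the lowest of the AXL KO libraries. Gapdh, Pgk1 and other members have processed pseudogenes, and reads that align equally well to a copy are not in these counts. Pgk1-rs7, a related copy, held 0.591 to 1.11 CPM in the AXL KO libraries and 1.14 to 1.71 CPM in the WT libraries.

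Phosphoglycerate mutases, enolases and pyruvate kinase complete the route to pyruvate, and their main genes fell. Pgam1, the general mutase, was 1.65-fold lower at 71.7 ± 14.8 CPM in the AXL KO libraries, against 118 ± 13.1 CPM in the WT libraries (SD, n = 3 each; edgeR adjusted p = 0.00546). Its pseudogene Pgam1-ps2 was counted at 4.04 to 4.82 CPM in the AXL KO libraries and 5.08 to 8.02 CPM in the WT libraries. Bpgm, which makes the 2,3-bisphosphoglycerate of red cells, fell 1.41-fold to 31.4 ± 1.12 CPM in the AXL KO libraries, against 44.2 ± 6.22 CPM in the WT libraries (edgeR adjusted p = 0.00764). The list of 8 red cell genes, Bpgm among them, summed to 182 to 268 CPM in the AXL KO libraries and 684 to 1070 CPM in the WT libraries. All 7 tested, Bpgm itself included, were called lower, where 18.3% of all tested genes were. Hbb-bs stood at 135 CPM in the AXL KO libraries and 541 CPM in the WT libraries. Their part in the Bpgm result was not tested.

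The 3 enolases went different ways. Eno1, the general enolase, had 655, 632 and 592 CPM in the AXL KO libraries, against 701, 824 and 870 CPM in the WT libraries, 1.27-fold lower (edgeR adjusted p = 0.0181). It lies on chromosome 4, whose median log2 fold change was 0.28, and with that removed its log2 fold change was -0.62 in place of -0.35. Its adjusted p was 0.0723 without AXL KO replicate 3 and 0.0794 without WT replicate 3. Eno2, the enolase of neurons that is also induced in hypoxia, had 5.77, 9.18 and 4.11 CPM in the AXL KO libraries, against 8.28, 15.6 and 11.3 CPM in the WT libraries, 1.85-fold lower. The groups overlapped, the edgeR adjusted p was 0.048, and it was 0.102 to 0.157 without AXL KO replicate 1, AXL KO replicate 3, WT replicate 2 or WT replicate 3. The neuronal markers Tubb3, Syp, Stmn2 and Rbfox3 stayed under 1 CPM in every library, and Snap25 had 0 counts. Uchl1, also on the neuronal list, was called lower at 0.931 ± 0.345 CPM in the AXL KO libraries, against 2.11 ± 0.618 CPM in the WT libraries (edgeR adjusted p = 0.0178), and Map2 was called higher at 138 ± 17.1 CPM in the AXL KO libraries, against 109 ± 8.63 CPM in the WT libraries (edgeR adjusted p = 0.031). The 8 neuronal markers, Eno2 among them, summed to 127 to 158 CPM in the AXL KO libraries and 116 to 139 CPM in the WT libraries, and their part in the Eno2 result was not tested. Eno3, the muscle enolase, rose 1.64-fold to 3.19 ± 0.382 CPM in the AXL KO libraries, against 1.94 ± 0.276 CPM in the WT libraries (edgeR adjusted p = 0.0183). Of 13 skeletal muscle markers, 11 stayed under 1 CPM in every library, among them Acta1 and the myosin heavy chains Myh1 and Myh4. Mb, myoglobin, was called higher at 17.1 ± 1.76 CPM in the AXL KO libraries, against 5.80 ± 0.933 CPM in the WT libraries (edgeR adjusted p = 0.000113), and Des, desmin, was called lower at 2.46 ± 1.49 CPM in the AXL KO libraries, against 5.34 ± 1.09 CPM in the WT libraries (edgeR adjusted p = 0.0387). The list summed to 19.5 to 23.1 CPM in the AXL KO libraries and 11.8 to 12.8 CPM in the WT libraries, and its part in the Eno3 result was not tested. The adjusted p of Eno3 was 0.065 without AXL KO replicate 1, 0.0642 without AXL KO replicate 3 and 0.0653 with the chromosome median removed. The log2 ratio of Eno1 to Eno3 was 1.06 lower in AXL KO, with groups apart (exact permutation p = 0.1, the smallest possible).

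Pkm, which encodes the M1 and M2 pyruvate kinases by alternative exons, had 1198, 1256 and 1082 CPM in the AXL KO libraries, against 1512, 1706 and 1767 CPM in the WT libraries. It was 1.41-fold lower (log2 fold change -0.50 ± 0.09, SE, edgeR adjusted p = 0.00314), and counts per gene do not separate M1 from M2. With the median of chromosome 9 removed its log2 fold change was -0.69, and 15.3% of its exon bases are shared with other genes.

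**Figure D3:**
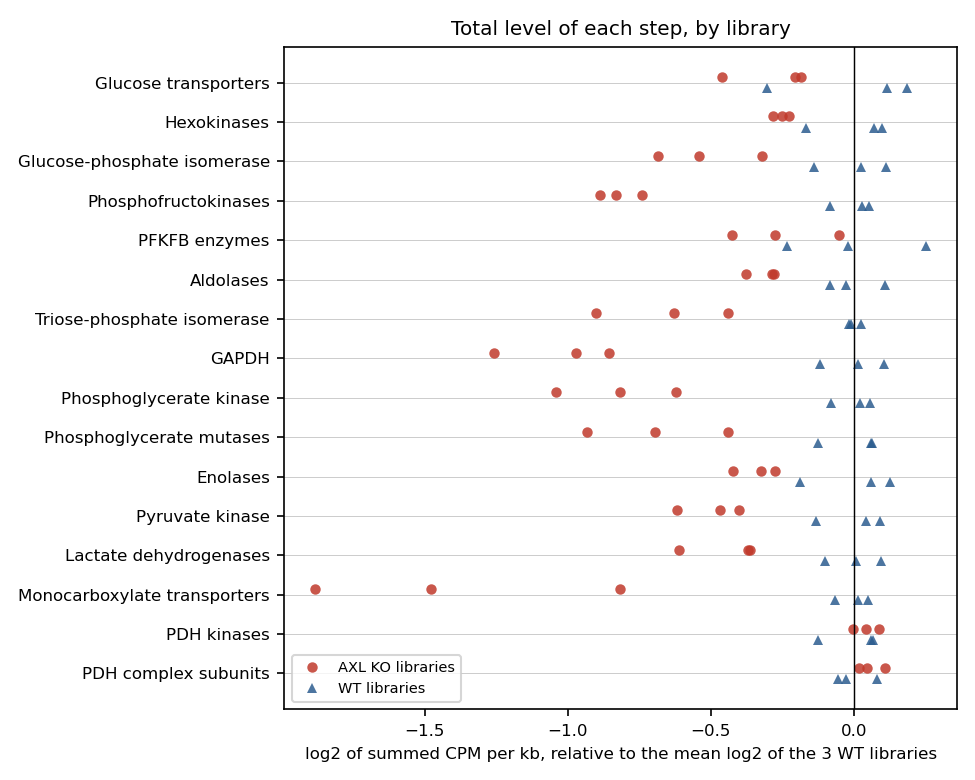
Summed CPM per kilobase of exon of all member genes of a step, as log2 relative to the mean log2 of the 3 WT libraries (x axis), for each AXL KO library (circles, upper) and WT library (triangles, lower). These genes are isoenzymes, except in the PDH complex, where they are different subunits. The AXL KO libraries lie wholly below the WT libraries in 12 of 16 steps and overlap them in the glucose transporters, PFKFB enzymes, PDH kinases and PDH complex.

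The members were summed within 16 groups, called steps here. They include 2 groups of regulators, the PFKFB enzymes and the PDH kinases, and the different subunits of the PDH complex. Of the 16 steps, 12 had AXL KO libraries wholly below the WT libraries and none the reverse, where 25.2% of all tested genes lay wholly below and 26.9% wholly above. The ratio of means was smallest for the monocarboxylate transporters (0.399), GAPDH (0.493), phosphofructokinase (0.567) and phosphoglycerate kinase (0.567), and nearest to 1 in the pyruvate dehydrogenase kinases (1.03) and the pyruvate dehydrogenase subunits (1.04). Each of the 12 gave the exact permutation p of 0.1 that the design allows at best. Of the 14 isoenzyme pairs, 8 had log2 ratios that did not overlap between the groups and 6 overlapped, among them Slc2a1 to Slc2a3 and Aldoa to Aldoc. Among all tested genes, 25.2% had levels wholly below and 26.9% wholly above those of WT, so that a count of 8 in 14 is near what single genes gave, and nothing is read from it.

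Of the lactate dehydrogenase subunits Ldhb fell and Ldha did not pass the test. Ldha, the subunit of muscle and of most tumours, which favours lactate formation (ENSMUSG00000063229, GRCm38 chr7:46841475-46855627, plus strand), had 1234, 1144 and 988 CPM in the AXL KO libraries, against 1296, 1137 and 1235 CPM in the WT libraries. The groups overlapped, and Ldha had a log2 fold change of -0.12 ± 0.10 (SE, 95% interval -0.34 to 0.10, edgeR adjusted p = 0.346). Ldhb, the heart subunit, which favours use of lactate (ENSMUSG00000030246, GRCm38 chr6:142490249-142507957, minus strand), had 171, 211 and 168 CPM in the AXL KO libraries, against 423, 368 and 391.6 CPM in the WT libraries. It was 2.15-fold lower (log2 fold change -1.11 ± 0.10, SE, edgeR adjusted p = 0.000112). Per kilobase of exon, Ldha made up 77.4%, 72.0% and 73.7% of the 2 subunits in the AXL KO libraries and 59.2%, 59.4% and 59.9% in the WT libraries. The log2 ratio of Ldha to Ldhb was 1.54 ± 0.21 in the AXL KO libraries and 0.56 ± 0.02 in the WT libraries (SD, n = 3 each). That difference of 0.98 had groups far apart and an exact two-sided permutation p of 0.1, the smallest possible, or 0.175 adjusted over 14 pairs. With the length of the longest transcript in place of all exons, the Ldha shares were 81.4% and 69.0% in the AXL KO and WT libraries. Ldha-ps2, a pseudogene, held 0.69 to 1.08 CPM in the AXL KO libraries and 0.773 to 1.13 CPM in the WT libraries.

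Both lactate carriers fell, and their summed level had the smallest ratio of the 16 steps. Slc16a1 (MCT1), a carrier that works in both directions (ENSMUSG00000032902, GRCm38 chr3:104638668-104658462, plus strand), had 6.30, 9.30 and 4.67 CPM in the AXL KO libraries, against 21.7, 16.9 and 18.9 CPM in the WT libraries. The groups did not overlap, and Slc16a1 was 2.83-fold lower (log2 fold change -1.50 ± 0.22, SE, edgeR adjusted p = 0.00121). Slc16a3 (MCT4), the exporter of strongly glycolytic cells and a hypoxia target, had 4.99, 8.65 and 3.88 CPM in the AXL KO libraries, against 7.33, 15.02 and 13.4 CPM in the WT libraries. It was 2.04-fold lower with overlapping groups (edgeR adjusted p = 0.0365), and its adjusted p was 0.108 to 0.113 without AXL KO replicate 1, AXL KO replicate 3, WT replicate 2 or WT replicate 3. WT replicate 1 held the most Slc16a1 and the least Slc16a3 of the WT libraries, so the log2 ratio of Slc16a1 to Slc16a3 lay between 0.37 and 0.60 in the AXL KO libraries and between 0.44 and 1.83 in the WT libraries, which overlap (exact permutation p = 0.3).

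Bsg (basigin), the chaperone that brings both carriers to the membrane, had 587, 773 and 532 CPM in the AXL KO libraries, against 1320, 1560 and 1430 CPM in the WT libraries. It was 2.28-fold lower (edgeR adjusted p = 0.000344). Another carrier, Slc16a7 (MCT2), fell 1.8-fold to 8.10 ± 1.52 CPM in the AXL KO libraries, against 14.6 ± 0.379 CPM in the WT libraries (edgeR adjusted p = 0.00214), and Ldhd, the mitochondrial dehydrogenase of D-lactate, fell 2.17-fold to 32.2 ± 1.4 CPM in the AXL KO libraries, against 69.6 ± 8.17 CPM in the WT libraries (edgeR adjusted p = 8.1e-05). These 3 genes belong to the wider list below and not to the 36.

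**Figure D4:**
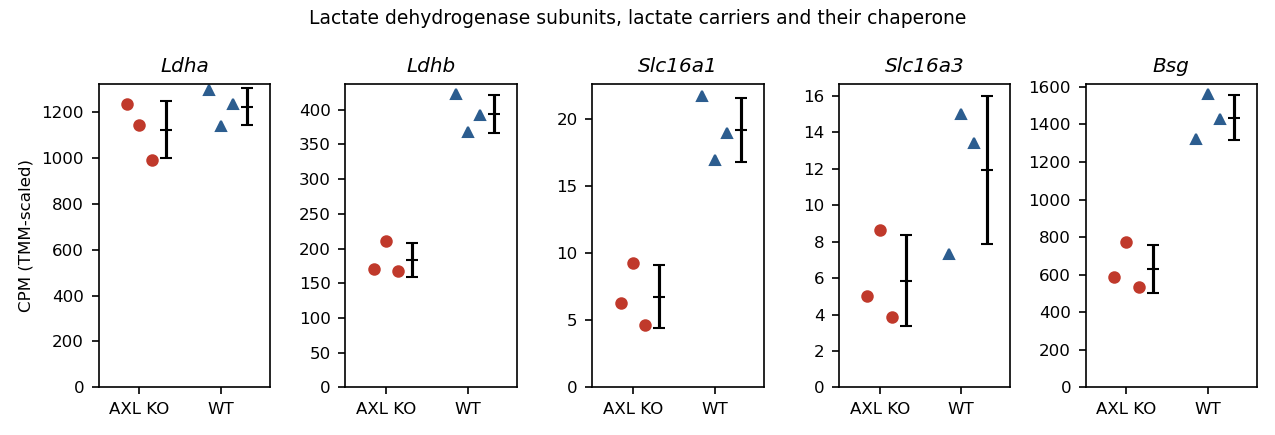
TMM-scaled CPM (y axes start at 0 and differ between panels) of the lactate dehydrogenase subunits, the carriers Slc16a1 and Slc16a3 and their chaperone Bsg, with 1 point per library, AXL KO left and WT right; black marks give the mean ± SD. Ldha overlaps between the groups and Ldhb does not.

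The pyruvate dehydrogenase kinases, which switch the complex off by phosphorylation, divided by isoenzyme. Pdk1, a known hypoxia target, had 98.9, 99.4 and 88.9 CPM in the AXL KO libraries, against 86.1, 92.1 and 106 CPM in the WT libraries. Its log2 fold change was 0.01 ± 0.09 (SE, 95% interval -0.20 to 0.23, edgeR adjusted p = 0.916), and its sign changed between settings. The log2 ratio of Pdk1 to Pdk3 was 0.43 higher in AXL KO and that of Pdk1 to Pdk4 1.28 higher, with groups apart in both. Pdk2, the most widely expressed kinase, stood at 105 ± 8.34 CPM in the AXL KO libraries and 91.1 ± 8.68 CPM in the WT libraries (edgeR adjusted p = 0.133). It held 64.1% ± 3.86 of the kinase level per kilobase in AXL KO and 57.4% ± 1.73 in WT. Pdk3 fell 1.33-fold to 13.0 ± 1.45 CPM in the AXL KO libraries, against 17.2 ± 1.21 CPM in the WT libraries (edgeR adjusted p = 0.0224). Pdk4, the kinase induced by fasting and fatty acids, had 5.03, 4.94 and 1.68 CPM in the AXL KO libraries, against 7.84, 11.2 and 6.66 CPM in the WT libraries, 2.21-fold lower (edgeR adjusted p = 0.0362). The Pdk3 call was lost without AXL KO replicate 1, AXL KO replicate 3 or WT replicate 3 (adjusted p = 0.0816 to 0.0965) and with a replicate block (0.0521), and the Pdk4 call without any 1 of the WT libraries (adjusted p = 0.0503 to 0.117). Adipocytes express Pdk4, and the 10 adipocyte markers summed to 79.7 to 205 CPM in the AXL KO libraries and 158 to 248 CPM in the WT libraries, with 0 called. Their part in the Pdk4 result was not tested.

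The 3 pyruvate dehydrogenase subunits among the members did not share the decrease. Dld, the shared E3 subunit, is not a member and was called lower (log2 fold change -0.27, edgeR adjusted p = 0.0481). Pdha1, the E1 alpha subunit, stood at 283 ± 15.6 CPM in the AXL KO libraries and 268 ± 12.2 CPM in the WT libraries (SD, n = 3 each; edgeR adjusted p = 0.45), with 16.1% of its exon bases shared with a gene on the opposite strand. Pdhb, the E1 beta subunit, stood at 130 ± 0.769 CPM in the AXL KO libraries and 137 ± 13.6 CPM in the WT libraries (edgeR adjusted p = 0.505). Dlat, the E2 core subunit, had 93.8, 98.8 and 97.7 CPM in the AXL KO libraries, against 82.8, 83.8 and 79.95 CPM in the WT libraries, and rose 1.18-fold (edgeR adjusted p = 0.0247). The groups did not overlap, but Dlat lies on chromosome 9, where the median log2 fold change was 0.20, and with that removed its own was 0.04 (adjusted p = 0.722). The call was also lost without AXL KO replicate 1, 2 or 3 or WT replicate 3 (adjusted p = 0.0581 to 0.0959) and with a replicate block (0.0591).

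Genes around the route moved in both directions, read against the same background of 18.3% lower and 19.1% higher genes. Of 21 tested genes of a wider glycolysis and gluconeogenesis list, 7 fell and 4 rose, and the median change was -0.11 on the log2 scale. Besides Ldhd and Bsg, the smallest p-values belonged to Slc2a6, a glucose transporter of lysosomal membranes, which rose 4.54-fold to 3.39 ± 0.459 CPM in the AXL KO libraries, against 0.742 ± 0.101 CPM in the WT libraries (edgeR adjusted p = 0.000138), and Pgm3, an enzyme of amino sugar synthesis, which rose 1.52-fold to 34.2 ± 0.797 CPM in the AXL KO libraries, against 22.4 ± 0.234 CPM in the WT libraries (edgeR adjusted p = 0.000452). Of 7 mitochondrial pyruvate carrier genes and dehydrogenase partners, 1 fell (Dld, the shared E3 subunit, log2 fold change -0.27) and 1 rose (Pdpr, a regulator of the dehydrogenase phosphatase, 0.71). The tricarboxylic acid cycle list of 20 tested genes had 2 lower and 3 higher, with a median of 0.01. Among them Cs, citrate synthase, lay at -0.25 and Ogdh, a subunit of oxoglutarate dehydrogenase, at 0.31, and both were called.

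In the pentose phosphate list 2 of 11 tested genes fell and 1 rose. Tkt, transketolase, which links the pathway back to glycolysis, had 218, 197 and 186 CPM in the AXL KO libraries, against 318, 286 and 359 CPM in the WT libraries, 1.605-fold lower (edgeR adjusted p = 0.00113). Of 19 tested glycogen genes 5 fell and 2 rose. Pygl, the liver glycogen phosphorylase, had 26, 31.8 and 16.6 CPM in the AXL KO libraries, against 115, 183 and 185 CPM in the WT libraries, 6.5-fold lower (edgeR adjusted p = 0.000111). That fall was larger than in any of the 36 members. Of 23 genes that regulate glycolysis, 10 fell and 3 rose, and the median was -0.19. With chromosome medians removed 7 of them fell and 2 rose. Hif1a, the oxygen-regulated subunit of hypoxia-inducible factor 1, was 1.496-fold lower at 165 ± 23.0 CPM in the AXL KO libraries, against 246 ± 9.97 CPM in the WT libraries (edgeR adjusted p = 0.00259). Epas1, its relative HIF-2 alpha, was 1.8-fold lower at 38.2 ± 0.938 CPM in the AXL KO libraries, against 68.7 ± 9.79 CPM in the WT libraries (edgeR adjusted p = 0.000467). Epas1 is abundant in endothelium. Endothelial markers fell in 9 of 10 genes and summed to 189 to 251 CPM in the AXL KO libraries and 325 to 364 CPM in the WT libraries. Their part in the Epas1 value was not tested. Arnt, also on the regulator list, was not called (log2 fold change 0.18, edgeR adjusted p = 0.102). Mycn was 5.18-fold lower at 1.41 ± 1.01 CPM in the AXL KO libraries, against 7.41 ± 2.1 CPM in the WT libraries (edgeR adjusted p = 0.00298). Myc was 1.35-fold lower (edgeR adjusted p = 0.00879) and Max 1.22-fold lower (edgeR adjusted p = 0.013). Egln3, of the regulator list, stood at 561 CPM in the AXL KO libraries and 991 CPM in the WT libraries (edgeR adjusted p = 0.000993). Vhl stood at 30.7 CPM in the AXL KO libraries and 46.1 CPM in the WT libraries (edgeR adjusted p = 0.00111). Prkaa2, a catalytic subunit of the energy sensor AMPK, rose to 98.0 ± 4.88 CPM in the AXL KO libraries, against 51.5 ± 5.66 CPM in the WT libraries (edgeR adjusted p = 0.000184). The median log2 fold change of tested genes was -0.22 on chromosome 12 (Hif1a, Egln3, Mycn, Max) and -0.29 on chromosome 15 (Myc). It was -0.26 on chromosome 17 (Epas1) and 0.28 on chromosome 4 (Prkaa2).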

How the data were processed

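Total RNA of 6 tumour grafts was sequenced with Illumina libraries, per the labels' protocols. The authors deposited raw counts per gene for each library and 1 table of differential expression. CASAVA 1.8, TopHat2 2.0.10, HTSeq 0.5.3, DESeq2 1.4.5 and build GRCm38 are named in the submitters' processing notes, while the sources used here name no counting settings, use of strand or annotation release. In the authors' deposited table the per-library signal equals counts divided by 1 size factor per library, log2 fold changes run WT over AXL KO (their sign was turned for the directions given here), the score is the fold change over its error, and the adjusted p-values are the authors' own.

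Counts were tested with edgeR 4.0.16 (R 4.3.3, quasi-likelihood, TMM factors), after leaving out 5 rows that name no gene and keeping 14850 genes by filterByExpr (minimum count 10), with Benjamini-Hochberg adjustment over all of them at 0.05. CPM is scaled by TMM. The level per kilobase divides it by the union of exons in GENCODE M21, and isoenzyme ratios add 0.5 counts to each gene. Depth was 26541009 to 32491807 counts in genes, and limits set by 0 counts cover counting error only. Ratios and step totals were compared by exact two-sided permutation over the 6 libraries. The alternatives were DESeq2 1.42.0, limma-voom (limma 3.58.1), other factors and filters, a replicate block, removal of each chromosome's median, other thresholds and each library left out; step totals by longest transcript and with libraries left out were chosen after seeing the data. The fit was tested on simulated data.

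The members and the lists were chosen with earlier results of these data known. Besides all 36 members, the text names up to 4 genes of each pathway list with the smallest p, the most abundant markers, and copies sharing a member's symbol. Slc16a7, Hif1a, Arnt, Myc, Mycn, Max, Esrp1, Fcgr1, Cd14, Slc2a4, Slc2a8, Slc2a9, Slc2a10, Slc2a12 and the markers given as absent fall outside that rule. They were chosen after their values were seen.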

Additional observations from a re-analysis of the deposited data

How the results depend on the processing

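The 21 lower members numbered 12 at an adjusted p of 0.01 and 6 with at least 2-fold, and 12 to 22 with 1 library left out. The 2 higher members numbered 1 when genes needed a mean log2 CPM of 2, 1 with a replicate block, 0 with chromosome medians removed, 0 at an adjusted p of 0.01, 0 with at least 2-fold, and 0 to 3 with 1 library left out. Over the 6 pathway lists, 27 genes were lower and 14 higher in the main fit. The number tested in each list is given in the Results. In the same fit 18.3% of all tested genes were lower and 19.1% higher. The list counts were 15 lower and 7 higher at an adjusted p of 0.01, and 6 and 2 with at least 2-fold. With 1 library left out they were 16 to 29 lower and 10 to 18 higher. The median of the members kept its sign, from -0.43 to -0.34 with 1 library left out. The cause of these shifts was not tested, apart from the stricter thresholds and fewer libraries themselves.

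Same-numbered libraries showed no sign of pairing (correlations of their deviations -0.058, -0.125 and 0.088, against -0.21 to 0.223 in the other pairs). With 3 libraries a group these values cannot show that there was no pairing. With a replicate block 19 members were lower and 1 higher, and the calls of Aldoa, Pdk3 and Dlat were lost. Signs of uncalled values turned as follows. With 1 library left out Slc2a3 ran from -0.402 to 0.0319, Pfkfb4 from -0.183 to 0.0467 and Pdk1 from -0.0505 to 0.104 (log2 fold changes), the Slc2a1 to Slc2a3 ratio from -0.209 to 0.0866, and the PDH kinase total from -0.0209 to 0.0748. Pdk1 was -0.00420 with upper-quartile factors, and Pdhb was 0.0490 with chromosome medians removed. With 3 libraries a group, no permutation test of a ratio can pass 0.05.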
